A study of Mus with 8 samples.

Results

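The mitochondrial ribosomal protein genes were examined after exposure to Butyroside D in B16F10, a pigmented melanoma line of the mouse. The members are the transcript clusters of a mouse Clariom S array that carry a single gene symbol of the Mrpl or Mrps series. There are 75 of them among 22206 transcript clusters, 47 named Mrpl and 28 named Mrps. A further 2 symbols, Mrpl53 and Mrps6, share a transcript cluster with a neighbouring gene and were left out. Each group has 4 arrays. The treated group held B16F10 cells given 2 µM Butyroside D over 48 h, and the control group the same line after 48 h in medium without the compound. The treatment note of the control samples also names a lower dose, whereas nothing but medium stands in their titles and source fields. All arrays come from 1 cell line with no other agent or genetic change in the labels. Whether the arrays of a group stem from separate cultures is not in the labels, and the p-values reflect just the spread among arrays, which may be technical.

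Mitochondrial ribosomes translate the few messages encoded by mitochondrial DNA, all of which specify subunits of the oxidative phosphorylation complexes. Their RNAs come from mitochondrial DNA, while every one of their proteins is encoded in the nucleus, made in the cytosol and imported. Mrpl genes encode proteins of the large subunit, where peptide bonds form, and Mrps genes those of the small subunit, which reads the message. Some of these proteins have a counterpart in the bacterial ribosome and others are found only in mitochondria.

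The arrays fell into 4 close pairs, arrays 1 and 2 and arrays 3 and 4 of each group. Across all transcript clusters, partners correlated at 0.997 to 0.998 and other arrays at 0.986 to 0.993, so that 4 arrays stand for 2 close pairs. The median log2 signal over all transcript clusters was 5.30 to 5.44 in the 8 arrays. The median of the antigenomic background probe sets, which match no mouse sequence, was 5.17, 5.07, 4.70 and 4.69 in treated arrays 1 to 4, against 4.83 to 4.95 in control arrays. The median log2 signal of the intron control probe sets was 6.06, 6.02, 6.55 and 6.52 in treated arrays 1 to 4, against 6.65, 6.64, 6.24 and 6.28 in control arrays 1 to 4. These background and intron signals move with the pairs, and their part in the results below was not tested. Of the members, 41 of 47 Mrpl and 27 of 28 Mrps genes lay above the background median of their own array in all 8 arrays. All 7 melanocyte markers looked up had high signals, with group means from 13.15 to 19.03 on the log2 scale, while fibroblast, keratinocyte, leukocyte and endothelial markers were at or near background, the highest being Col1a1 at 5.30 in treated and 5.57 in control arrays. In bulk RNA, fewer cells of one type and less RNA per cell cannot be told apart.

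No Mrpl or Mrps gene passed the test between treated and control arrays. Their log2 differences, treated minus control, leaned upward: 38 of 47 Mrpl genes (80.9%) and 19 of 28 Mrps genes (67.9%) had a positive value, beside 51.5% of all transcript clusters and 53.3% of the 11567 transcript clusters whose mean lay above background. The median log2 difference was 0.21 for Mrpl genes and 0.12 for Mrps genes, beside 0.01 for all transcript clusters. The values ran from -0.43 to 0.83 for Mrpl genes and from -0.42 to 0.59 for Mrps genes.

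The test was limma with Benjamini-Hochberg adjustment over all transcript clusters, and an adjusted p under 0.05 counted as a call. Called were 0 of 47 Mrpl and 0 of 28 Mrps genes, where 0.0766% of all transcript clusters were called higher and 0.0405% lower in treated cells. The smallest adjusted p from limma was 0.0877 among Mrpl genes and 0.156 among Mrps genes. At an unadjusted p under 0.05, 10 Mrpl genes (21.3%) were higher and 0 lower, and 4 Mrps genes (14.3%) were higher and 1 (3.57%) lower, beside 9.84% higher and 8.07% lower of all transcript clusters. With the close pair as a random block, whose estimated correlation was 0.808, 2 Mrpl genes and 0 Mrps genes had an unadjusted p under 0.05 in limma, beside 4.01% of all transcript clusters, and no transcript cluster was called.

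**Figure D1:**
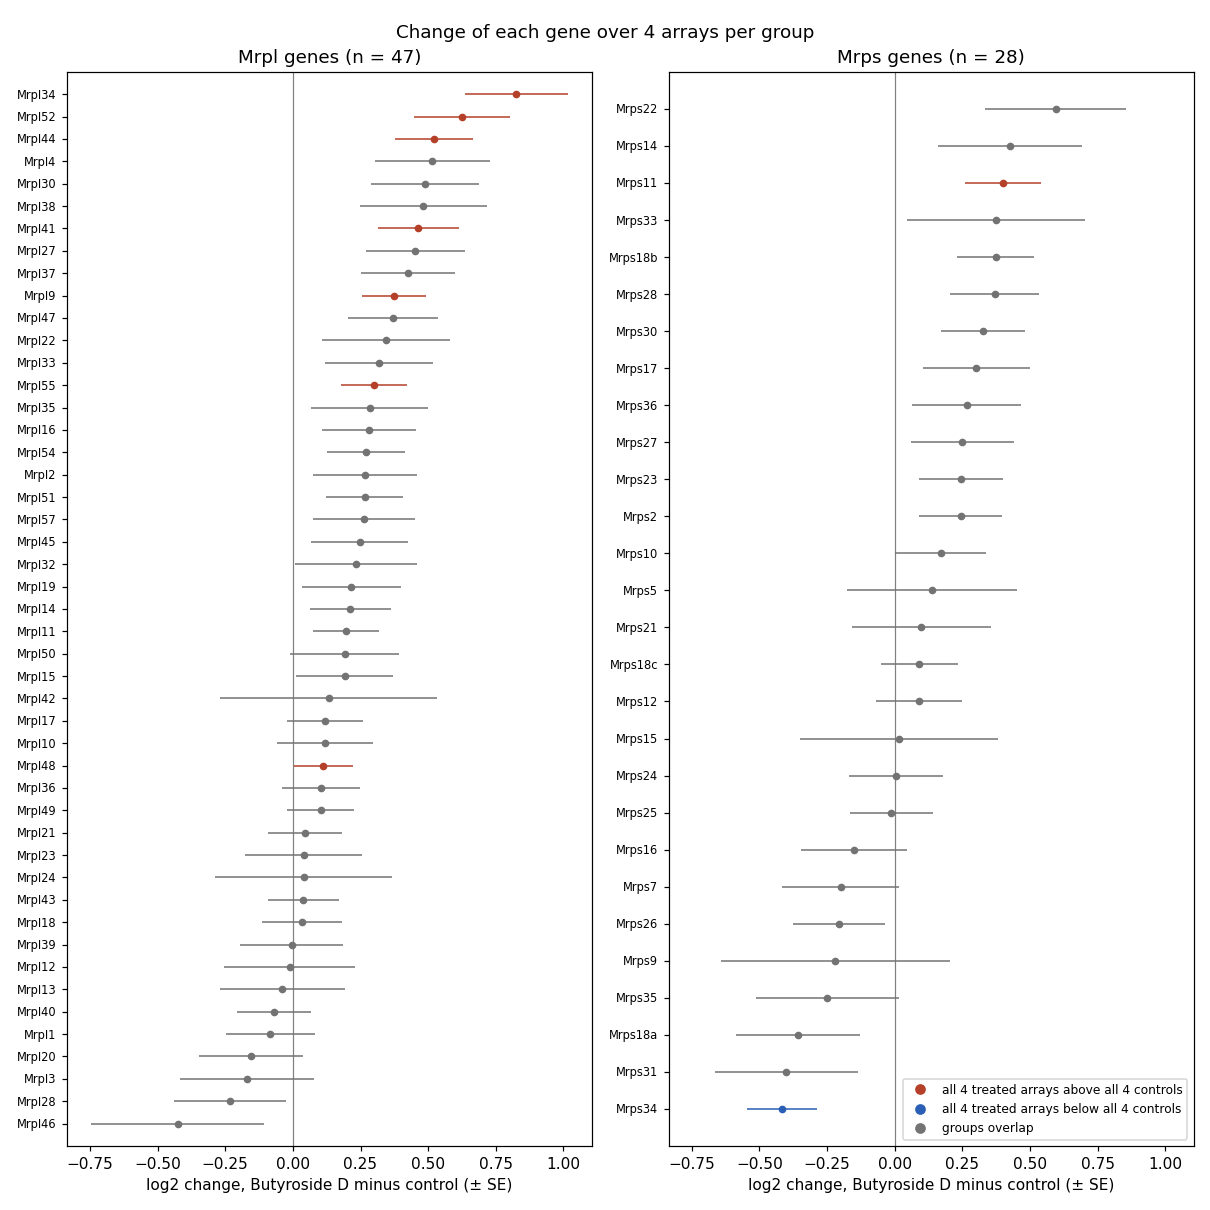
Log2 difference of every Mrpl gene (left) and Mrps gene (right), Butyroside D minus control over 4 arrays per group. Points are limma estimates and bars their standard errors; red marks genes whose treated arrays all lay above all controls, blue those below and grey overlapping groups. Positive values make up 38 of 47 Mrpl and 19 of 28 Mrps genes, and 8 genes are red and 1 is blue.

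In 7 Mrpl genes (14.9%) all treated arrays lay above all control arrays, and in 0 they all lay below. The same was seen for 1 Mrps gene (3.57%) above and 1 (3.57%) below. Of all transcript clusters, 6.98% lay wholly above and 5.93% wholly below, and of those with a mean above background 8.9% and 6.04%.

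Among large-subunit genes with a bacterial counterpart, Mrpl34 and Mrpl9 were of this kind. Mrpl34, one of the smallest proteins of the subunit, had log2 signals of 5.69, 5.71, 5.43 and 5.08 in treated arrays, against 4.94, 4.70, 4.27 and 4.69 in control arrays. The groups did not overlap, but only 1 of 4 control arrays was above its background median. The log2 difference of Mrpl34 as measured was 0.83 ± 0.19 (SE; adjusted p from limma 0.0877), and its size is uncertain because most control signals were not above background. Mrpl9, which sits near the flexible L1 stalk, had log2 signals of 10.0003, 10.0024, 9.86 and 10.11 in treated arrays, against 9.50, 9.60, 9.69 and 9.69 in control arrays. Every treated array was above every control, by a narrow margin, with a log2 difference of 0.37 ± 0.12 (SE; adjusted p from limma 0.162). Mrpl55, assigned to the place of a bacterial protein, had 7.96, 7.81, 8.16 and 7.87 in treated arrays, against 7.67, 7.67, 7.63 and 7.63 in control arrays. Its controls lay close together below all treated arrays, and the log2 difference was 0.30 ± 0.12 (SE; adjusted p from limma 0.242).

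The other non-overlapping Mrpl genes encode proteins found only in mitochondrial ribosomes. Mrpl44, whose protein has the fold of an RNase III enzyme, had log2 signals of 11.54, 11.65, 11.74 and 11.96 in treated arrays, against 11.19, 11.43, 10.98 and 11.21 in control arrays. All treated values were higher, with a log2 difference of 0.52 ± 0.15 (SE; adjusted p from limma 0.129). Mrpl41 had 6.82, 7.27, 6.88 and 7.11 in treated arrays, against 6.64, 6.43, 6.41 and 6.76 in control arrays. The lowest treated array of Mrpl41 lay just above the highest control, and the log2 difference was 0.46 ± 0.15 (SE; adjusted p from limma 0.165). Mrpl52 was dim, at 4.85, 4.93, 5.41 and 5.51 in treated arrays, against 4.55, 4.39, 4.77 and 4.50 in control arrays. Here no control array and only treated arrays 3 and 4 were above their background medians, so the size is uncertain (adjusted p from limma 0.134). The mean treated signal was 1.23-fold the control background level. This is no firm bound, because treated arrays 1 and 2, themselves not above background, enter that mean. Mrpl48, a protein of the central protuberance, had 11.69, 11.77, 11.77 and 11.81 in treated arrays, against 11.65, 11.67, 11.62 and 11.65 in control arrays. These groups were apart but very near each other, with a log2 difference of 0.11 ± 0.11 (SE; adjusted p from limma 0.611). Mrpl54 was below the background median in every array of both groups, so no size is given for it.

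In the small subunit, Mrps11, a conserved protein of the platform, had log2 signals of 10.37, 10.50, 10.55 and 10.54 in treated arrays, against 9.98, 9.84, 10.19 and 10.34 in control arrays. It was the 1 Mrps gene with all treated arrays above all controls, and the log2 difference was 0.40 ± 0.14 (SE; adjusted p from limma 0.193). Mrps34, a mitochondria-specific protein whose loss causes Leigh syndrome in humans, had 7.16, 7.13, 6.90 and 6.81 in treated arrays, against 7.31, 7.43, 7.47 and 7.45 in control arrays. It was the 1 member of either series with all treated arrays below all controls, with a log2 difference of -0.42 ± 0.13 (SE; adjusted p from limma 0.156).

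Several members with large mean differences overlapped between the groups or owed the difference to a single treated pair. Mrps22, a mitochondria-specific small-subunit protein with the highest Mrps difference, had 8.46, 8.46, 9.54 and 9.27 in treated arrays, against 8.09, 8.15, 8.48 and 8.63 in control arrays. Treated arrays 3 and 4 lay above all controls and treated arrays 1 and 2 among them, with a log2 difference of 0.59 ± 0.26 (SE; adjusted p from limma 0.27). Mrpl4, which lines the peptide exit tunnel, had 7.96, 7.78, 7.17 and 7.34 in treated arrays, against 7.21, 7.40, 6.78 and 6.80 in control arrays. For Mrpl4 it was treated arrays 1 and 2 that lay above all controls, with a log2 difference of 0.52 ± 0.21 (SE; adjusted p from limma 0.249). Mrpl30, a conserved large-subunit protein, had 8.60, 8.79, 9.24 and 9.35 in treated arrays, against 8.65, 8.75, 8.45 and 8.17 in control arrays. Treated arrays 2, 3 and 4 of Mrpl30 lay above all controls, array 2 barely, and treated array 1 among them. Mrps14, a conserved small-subunit protein, had 8.67, 8.68, 9.41 and 9.25 in treated arrays, against 8.96, 9.05, 8.15 and 8.15 in control arrays. The control pairs of Mrps14 were 0.86 apart on the log2 scale, more than its log2 difference of 0.43 ± 0.26 (SE; adjusted p from limma 0.423).

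At the low end, Mrpl46, of the central protuberance, had 5.15, 4.89, 6.23 and 6.45 in treated arrays, against 6.10, 6.10, 6.01 and 6.22 in control arrays. Treated arrays 1 and 2 were low, below their background medians, and treated arrays 3 and 4 were just above all controls. The log2 difference of Mrpl46 over all arrays was -0.43 ± 0.32 (SE; adjusted p from limma 0.509). Mrpl28, Mrpl3, which lies near the peptidyl transferase centre, and Mrpl20 had log2 differences of -0.23 ± 0.21, -0.17 ± 0.25 and -0.16 ± 0.19 (SE). Mrpl28 and Mrpl3 lay -0.58 and -0.59 from the control mean in treated arrays 1 and 2. In treated arrays 3 and 4 they lay 0.11 and 0.245 from it. The control pairs of Mrpl20 were 0.61 apart on the log2 scale. In the small subunit, Mrps31 had 9.24, 9.27, 10.39 and 10.27 in treated arrays, against 10.28, 10.13, 10.21 and 10.16 in control arrays, so that treated arrays 1 and 2 were low and 3 and 4 near the controls. The log2 difference of Mrps31 was -0.40 ± 0.26 (SE; adjusted p from limma 0.451), and that of Mrps35 was -0.25 ± 0.26 (SE), again with treated arrays 1 and 2 alone below the controls.

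The treated pairs differed in how far the members lay from control. In treated arrays 1 and 2 the median log2 difference from the control mean was 0.11 for Mrpl genes and 0.02 for Mrps genes, with 29 of 47 and 15 of 28 positive. In treated arrays 3 and 4 it was 0.29 and 0.21, with 40 of 47 and 21 of 28 positive. Transcript clusters with a mean above background had medians of 0.00 for the first pair and 0.06 for the second, with 49.6% and 57.6% positive. Of all transcript clusters, 53.4% were positive in the first pair and 48.7% in the second. The Mrps count in the first pair (53.6%) was thus near the share of all. The upward lean of the members was thus larger in treated arrays 3 and 4, the pair with the lower background signal. The median log2 signal of the exon control probe sets was also higher in that pair, at 10.43 and 10.41. It was 10.07 and 10.06 in treated arrays 1 and 2, and 10.06 to 10.29 in control arrays. The part of either signal in the lean was not tested. By array, the median deviation of Mrpl genes from the control mean was 0.09, 0.12, 0.31 and 0.28 in treated arrays, against 0.07, 0.02, -0.03 and -0.02 in control arrays. That of Mrps genes was 0.06, -0.07, 0.19 and 0.26 in treated arrays, against 0.06, -0.07, 0.01 and 0.00 in control arrays. For Mrps genes, then, treated arrays 1 and 2 matched the control arrays in their medians.

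**Figure D2:**
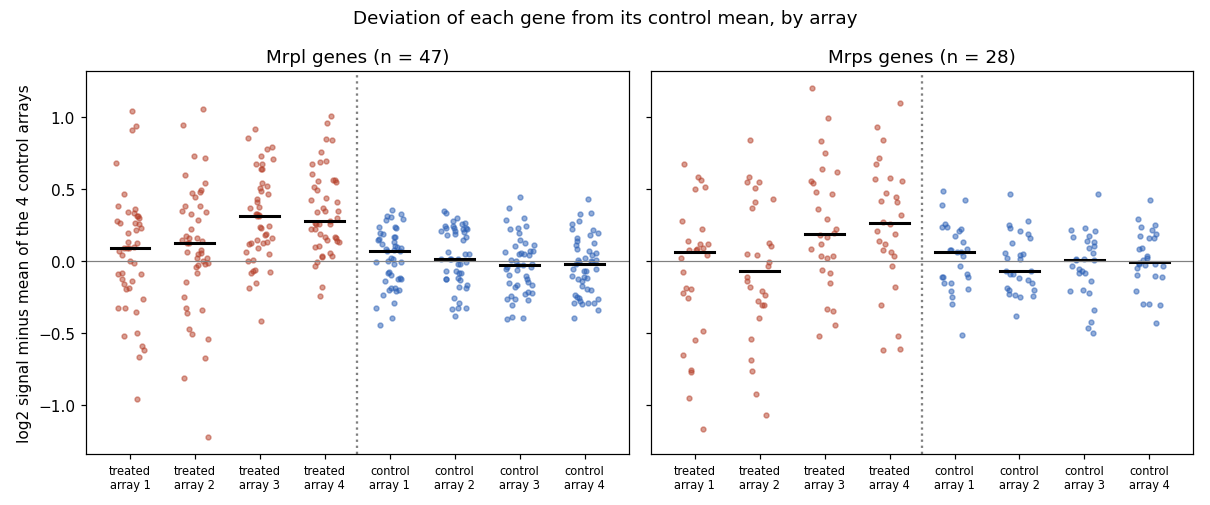
Log2 signal of each Mrpl gene (left) and Mrps gene (right) minus its mean over the 4 control arrays, by array; each point is 1 gene and the black bar is the median. Medians of treated arrays 3 and 4 are 0.31 and 0.28 for Mrpl and 0.19 and 0.26 for Mrps genes, and the spread of the genes is wide in all treated arrays.

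Of the treated pairs, just the second (arrays 3 and 4) lay wholly above all controls for 12 Mrpl genes (25.5%) and 9 Mrps genes (32.1%), beside 6.92% of all transcript clusters and 8.38% of those above background. Just the first pair (arrays 1 and 2) did so for 5 Mrpl genes (10.6%) and 4 Mrps genes (14.3%), beside 16% of all. Just the first pair lay wholly below all controls for 2 Mrpl (4.26%) and 3 Mrps genes (10.7%), beside 12.1% of all, and just the second for 0 Mrpl genes and 1 Mrps gene, Mrps26, beside 8.89% of all. A single array of the other pair could still lie outside the controls in these counts, as array 1 of Mrps30 did. In 16 Mrpl genes (34%) and 5 Mrps genes (17.9%) neither treated pair lay wholly outside the controls, beside 33.8% of all. The signs of the treated pairs were opposite in 21 Mrpl genes (44.7%) and 14 Mrps genes (50%), which is near the 45.8% of all transcript clusters.

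Treated pairs on opposite sides of every control were seen for 9 members. Treated arrays 1 and 2 were below and treated arrays 3 and 4 above for 5 Mrpl genes (10.6%; Mrpl13, Mrpl23, Mrpl24, Mrpl42 and Mrpl46) and 3 Mrps genes (10.7%; Mrps9, Mrps15 and Mrps21), beside 4.96% of all transcript clusters and 8.65% of those above background. The reverse was seen for Mrps5, which lies at the mRNA entry side of the small subunit, where 4.43% of all transcript clusters were of this kind. Mrps9, a conserved protein of the small-subunit head, had log2 signals of 10.15, 10.25, 11.96 and 12.04 in treated arrays, against 11.50, 11.48, 11.29 and 11.02 in control arrays. Its treated pairs differed from the control mean by -1.12 and 0.68 on the log2 scale. These opposite values left a mean log2 difference of -0.22 ± 0.42 (SE; adjusted p from limma 0.815).

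Mrpl42, a mitochondria-specific protein, had 10.61, 10.39, 12.11 and 12.21 in treated arrays, against 11.39, 11.46, 11.03 and 10.90 in control arrays. Its pairs lay -0.70 and 0.96 from the control mean, and the log2 difference over all arrays was 0.13 ± 0.40 (SE; adjusted p from limma 0.889). Mrpl24, a protein at the exit of the peptide tunnel, had 11.74, 11.58, 12.93 and 12.93 in treated arrays, against 12.57, 12.50, 11.95 and 11.998 in control arrays. The control pairs of Mrpl24 were themselves 0.56 apart on the log2 scale. Mrps15, a conserved small-subunit protein, had 4.84, 4.85, 6.36 and 6.45 in treated arrays, against 5.67, 5.65, 5.52 and 5.59 in control arrays. Treated arrays 3 and 4 of Mrps15 lay 0.80 above the control mean on the log2 scale, while treated arrays 1 and 2 were not above their background medians, so no size is given for that pair. Mrps5 had 10.75, 10.91, 9.63 and 9.55 in treated arrays, against 9.88, 9.84, 10.29 and 10.29 in control arrays. Mrps33, a mitochondria-specific protein, had 10.19, 9.99, 11.38 and 11.49 in treated arrays, against 10.28, 10.14, 10.55 and 10.58 in control arrays. High values of Mrps33 were thus held by treated arrays 3 and 4. Mrpl38, of the central protuberance, named after its values were seen, had 10.70, 10.72, 9.81 and 9.76 in treated arrays, against 9.84, 9.65, 9.82 and 9.76 in control arrays. It shows the converse, with treated arrays 1 and 2 high and treated arrays 3 and 4 at the control level.

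**Figure D3:**
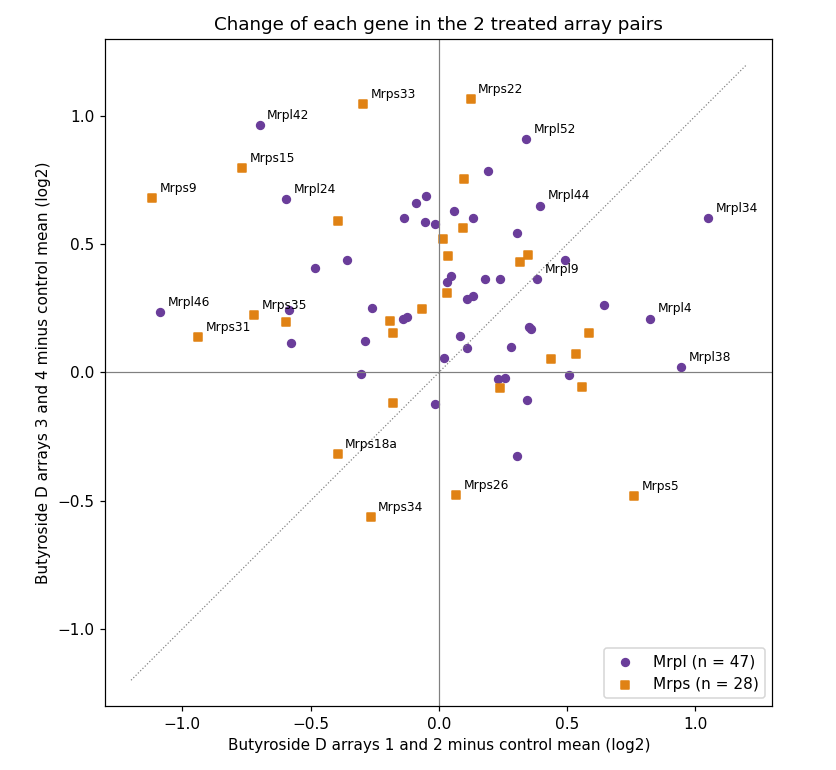
Log2 difference from the control mean in treated arrays 1 and 2 (x axis) and in treated arrays 3 and 4 (y axis), 1 point per gene; circles are Mrpl and squares Mrps genes, and the dotted line marks equal values. More genes lie above the horizontal zero line (61 of 75) than right of the vertical one (44 of 75), and Mrpl42, Mrps9 and Mrps15 lie in the upper left. For Mrpl46 and Mrps15 the x value comes from signals not above background.

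Each treated pair was also set alone against the 4 controls in limma, which treats the 2 arrays of a pair as independent although they were nearly alike. This comparison was chosen after the data were seen. Treated arrays 3 and 4 alone gave 4 Mrpl calls, all higher (Mrpl16, Mrpl33, Mrpl42 and Mrpl52), and 5 Mrps calls, of which Mrps15, Mrps22, Mrps30 and Mrps33 were higher and Mrps34 lower, where 2.14% of all transcript clusters were called higher and 1.82% lower. Treated arrays 1 and 2 alone gave 8 Mrpl calls (Mrpl4, Mrpl27, Mrpl34 and Mrpl38 higher, Mrpl13, Mrpl28, Mrpl42 and Mrpl46 lower) and 8 Mrps calls (Mrps5, Mrps27 and Mrps28 higher, Mrps7, Mrps9, Mrps15, Mrps31 and Mrps35 lower), where 13.9% were called higher and 10.8% lower. Mrpl42 and Mrps15 were called in both, in opposite directions. Leaving out control arrays 1 and 2 gave 0 Mrpl and 0 Mrps calls, where 0.063% of all transcript clusters were called higher and 0.045% lower, and leaving out control arrays 3 and 4 gave no call at all.

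**Figure D4:**
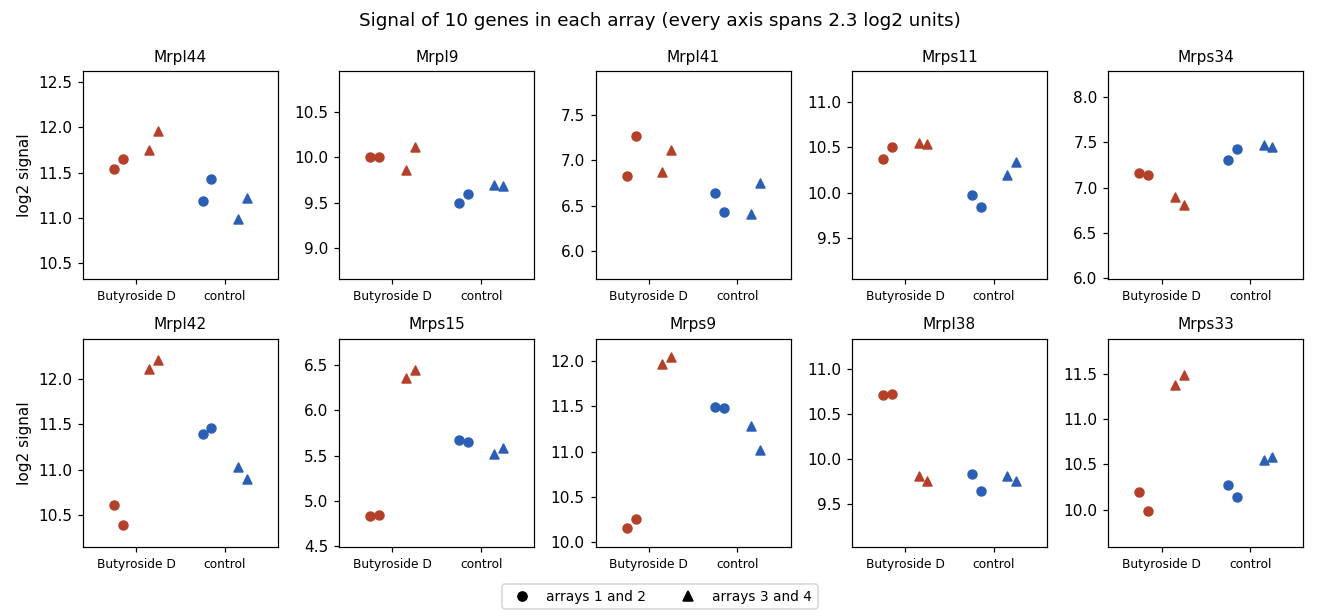
Log2 signal of 10 genes in the 4 Butyroside D arrays (red, left in each panel) and the 4 control arrays (blue, right); circles are arrays 1 and 2 and triangles arrays 3 and 4, and every vertical axis spans the same range. In the upper row the groups do not overlap, and in the lower row the treated pairs lie far apart, as for Mrps9 at 10.15 and 10.25 against 11.96 and 12.04.

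The control pairs were often further apart than the treated and control means. This held for 32 of 47 Mrpl genes (68.1%) and 16 of 28 Mrps genes (57.1%), beside 57.9% of all transcript clusters. The median size of the gap between control pairs was 0.28 for Mrpl genes and 0.32 for Mrps genes on the log2 scale. The median size of the treated minus control difference was 0.23 and 0.25, that of the gap between treated pairs 0.41 and 0.47, and that of the gap within pairs 0.10 in both series. Mrpl12, the stalk protein that recruits translation factors, was named after its values were seen. It had 10.20, 10.28, 9.52 and 9.69 in treated arrays, against 9.54, 9.60, 10.38 and 10.22 in control arrays. Both groups of Mrpl12 spanned the same range, each with 1 high and 1 low pair, and the log2 difference was -0.01 ± 0.24 (SE).

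Grouped by origin, 20 of 29 members found only in mitochondrial ribosomes had positive log2 differences, with a median of 0.24, and 36 of 45 members with a bacterial counterpart did, with a median of 0.17. Their medians were 0.09 and 0.04 for treated arrays 1 and 2, and 0.18 and 0.30 for treated arrays 3 and 4. The difference between these classes was not tested. For 3 members the symbol does not tell where the protein sits. Mrps30 and Mrps18a encode proteins that structures place in the large subunit, and the protein of Mrps36 belongs to the oxoglutarate dehydrogenase complex. Mrps30 had 9.57, 9.32, 9.89 and 9.94 in treated arrays, against 9.42, 9.37, 9.30 and 9.33 in control arrays, with all but treated array 2 above the controls. Mrps18a had 9.26, 9.44, 9.41 and 9.44 in treated arrays, against 9.23, 9.37, 10.21 and 10.17 in control arrays, so that the spread lay between the control pairs. Mrps36 had 7.34, 7.09, 7.76 and 7.68 in treated arrays, against 7.62, 7.13, 6.86 and 7.19 in control arrays, again with only treated arrays 3 and 4 above all controls. Sorted by structure, 39 of 49 large-subunit genes had positive differences (median 0.21), and 17 of 25 small-subunit genes did (median 0.10).

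The authors' deposited table of the same comparison shares the control arrays, but its treated average is not the mean of the 4 treated arrays. In the authors' deposited table that average lay above all 4 treated arrays for 29 of the 75 members and below all of them for 4. Among all 22206 transcript clusters it lay above them for 4159 and below them for 5361. The mismatch thus ran through the whole table, more often downward over all transcript clusters and more often upward for the members. Its values for the members are therefore given beside those above as another source and not as a repeat. A positive log2 fold change was given in the authors' deposited table to 42 of 47 Mrpl genes (89.4%) and 22 of 28 Mrps genes (78.6%), beside 45.3% of all transcript clusters, and the medians were 0.38 and 0.37, beside -0.03. An FDR under 0.05 with a higher treated average was given in the authors' deposited table to 3 Mrpl genes (6.38%) and 2 Mrps genes (7.14%), beside 0.896% of all transcript clusters, and with a lower one to 0 members, beside 0.666%.

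The Mrpl genes called in the authors' deposited table were Mrpl16, a conserved protein near the peptidyl transferase centre, at 1.74-fold (FDR 0.0476), Mrpl21 at 1.71-fold (FDR 0.0379) and Mrpl41 at 1.71-fold (FDR 0.0266). The Mrps genes called in the authors' deposited table were Mrps18b at 1.96-fold (FDR 0.0222) and Mrps33 at 2.2-fold (FDR 0.0417). In the arrays Mrps18b had log2 signals of 9.13, 9.52, 9.30 and 9.58 in treated arrays, against 8.92, 8.92, 9.03 and 9.17 in control arrays, with a log2 difference of 0.37 ± 0.14 (SE; adjusted p from limma 0.217). All but treated array 1 were above the highest control. Mrpl21, a conserved large-subunit protein, had 9.17, 9.25, 9.49 and 9.60 in treated arrays, against 9.22, 9.31, 9.38 and 9.41 in control arrays, and its treated average in the authors' deposited table, 10.12, lay above all of these. Mrpl16 had 6.76, 6.74, 7.40 and 7.28 in treated arrays, against 6.78, 6.68, 6.77 and 6.82 in control arrays, with treated arrays 3 and 4 alone high and a treated average of 7.58 in the authors' deposited table. Mrpl41 was the 1 gene called there whose arrays did not overlap between the groups. Members at the low end in the arrays differed too. Mrpl3, Mrpl20, Mrpl46 and Mrps31 were higher in treated cells in the authors' deposited table, at 1.61-fold, 1.67-fold, 1.38-fold and 1.31-fold. Mrps35 was lower there, at -1.13-fold, and Mrpl28 was unchanged. No FDR of these genes was under 0.05.

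The wider translation system of mitochondria was read from lists of related genes, and limma called 0 members in each of them. Of 6 mitoribosomal proteins with other symbols, 3 had positive log2 differences. Aurkaip1, a small-subunit protein, had 7.18, 7.31, 7.11 and 6.89 in treated arrays, against 6.95, 6.92, 5.96 and 6.29 in control arrays, with a log2 difference of 0.60 ± 0.23 (SE; adjusted p from limma 0.219). Its control pairs lay wide apart, and treated array 4 lay within them. Ict1, a large-subunit protein able to release stalled peptides, had 8.996, 9.04, 8.70 and 8.85 in treated arrays, against 8.58, 8.52, 8.57 and 8.68 in control arrays, with all treated arrays above. Dap3, the GTP-binding protein of the small subunit, also had all treated arrays above, but at 12.44 ± 0.01 in treated arrays against 12.38 ± 0.04 in control arrays (SD, n = 4 each). Ptcd3 and Chchd1, both of the small subunit, had log2 differences of -0.13 ± 0.14 and -0.10 ± 0.23 (SE), and Gadd45gip1, of the large subunit, was below background in every control array.

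Of 25 measured assembly and rRNA modification genes, 15 had positive differences, with a median of 0.09. Mpv17l2, an inner membrane protein needed for assembly, had 8.62, 8.68, 7.65 and 7.48 in treated arrays, against 7.41, 7.08, 7.33 and 7.38 in control arrays. All treated arrays of Mpv17l2 were above all controls, arrays 1 and 2 by far the most, with a log2 difference of 0.81 ± 0.27 (SE; adjusted p from limma 0.183). The RNA helicase Dhx30 and the assembly GTPase Mtg1 also did not overlap, with log2 differences of 0.53 ± 0.15 and 0.40 ± 0.13 (SE). Among 16 measured translation factors, 8 had positive differences, with a median of 0.00. The elongation factors Tufm and Tsfm were at -0.57 ± 0.22 and -0.43 ± 0.17 (SE, log2), and Mtfmt, which formylates the initiator tRNA, at -0.60 ± 0.21 (SE, log2), with adjusted p-values from limma of 0.231, 0.245 and 0.192. The treated pairs differed here too, but not in the same direction for all 3 genes. Treated arrays 1 and 2 lay -0.97 from the control mean for Tufm and -0.89 for Mtfmt. For treated arrays 3 and 4 these values were -0.17 and -0.31. Tsfm showed the reverse, at -0.71 for the second pair and -0.15 for the first, with every treated array below every control. In the authors' deposited table Tufm and Mtfmt were higher in treated cells, at 1.08-fold and 1.22-fold, and Tsfm was lower, at -1.25-fold.

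Of 20 mitochondrial aminoacyl-tRNA synthetases, 8 had positive differences (median -0.04). Hars2, the histidyl-tRNA synthetase, had 5.27, 5.20, 5.52 and 5.51 in treated arrays, against 5.90, 5.87, 6.12 and 6.06 in control arrays, with a log2 difference of -0.61 ± 0.13 (SE; adjusted p from limma 0.0778). All treated arrays of Hars2 lay below all controls, and this was the smallest adjusted p in the pathway lists. The authors' deposited table gave Hars2 the opposite direction, at 1.29-fold (FDR 0.4117). Nars2, the asparaginyl-tRNA synthetase, had a log2 difference of -0.64 ± 0.25 (SE; adjusted p from limma 0.228). For Nars2 only treated arrays 1 and 2 lay wholly below the controls, at -1.11 from the control mean, against -0.16 for treated arrays 3 and 4. Of 21 measured genes for mitochondrial DNA transcription, replication and their nuclear regulators, 10 had positive differences (median -0.08). Polg2, the accessory subunit of the mitochondrial DNA polymerase, was at 0.50 ± 0.18, Pprc1 at -0.41 ± 0.28 and Myc at 0.32 ± 0.16 (SE, log2). The size for Pprc1 is uncertain, as treated array 1, at 4.45, was below its background median. Treated arrays 3 and 4 of Pprc1 lay 0.11 above the control mean. Of 12 mitochondrial chaperones and proteases, 10 had positive differences (median 0.17), among them the chaperone Trap1 at 0.74 ± 0.22 (adjusted p from limma 0.139), the matrix protease Lonp1 at 0.31 ± 0.12 and Spg7, of the protease that matures the protein of Mrpl32, at 0.59 ± 0.28 (SE, log2).

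Cytosolic ribosomal proteins and complex I subunits are set beside the members for size, without a test of the difference. The 47 Mrpl and 28 Mrps genes had the median log2 differences given above, 0.11 and 0.02 for the first treated pair and 0.29 and 0.21 for the second. The 82 cytosolic ribosomal protein genes had medians of -0.30 and 0.47 in the same order of pairs, and the 37 complex I genes -0.03 and 0.50. Gene by gene, the median size of the gap between treated pairs was 0.41 for Mrpl and 0.47 for Mrps genes, beside 0.72 for cytosolic ribosomal protein genes and 0.38 for complex I genes. Over all arrays, 28 of 37 complex I genes (75.7%) had positive log2 differences, with a median of 0.25, and in 13 of them all treated arrays lay above all controls. For the cytosolic ribosomal proteins this was 49 of 82 (59.8%), with a median of 0.10 and 11 such genes. Of all transcript clusters 51.5% had positive differences and 6.98% lay wholly above the controls. Of those with a mean above background it was 53.3% and 8.9%. An upward lean was thus also seen in complex I genes.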

How the data were processed

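Per the submitters' processing notes, the tools were RMA, Transcriptome Analysis Console and Affymetrix Expression Console, all without a version. Signals in the deposited value table are log2, 1 column per array. The authors' deposited table holds log2 averages, a signed linear fold change (a score, as values below 1 are negative inverses), and the authors' p-value and FDR from a test its file headers do not name. The genome build is not given in the sources used here.

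After 6640 control probe sets were set aside, treated minus control was fitted on 22206 transcript clusters by lmFit and eBayes of limma 3.58.1 (R 4.3.3). The fit had 6 residual degrees of freedom, to which eBayes adds prior degrees of freedom. Tests were two-sided, and p-values were adjusted over all transcript clusters by Benjamini-Hochberg. The test was tried on simulated independent arrays and on simulated close pairs, and the false calls found there are not reported here. All 75 members are in RefSeq's mouse gene table. Members, lists and class assignments were chosen with earlier results of these data known. Named were members called in either source, the 5 highest and 5 lowest of each series, the 4 non-overlapping members with the smallest p, the 3 of each series with the widest gap between treated pairs, the extremes of mean signal, the 6 mitoribosomal genes with other symbols, 3 of each list by p, and Mrps36, Mrps30 and Mrps18a; 1 gene due by this rule is not reported here, and other names were chosen after their values were seen. Alternatives were blocks, pair means, scaling, a filter on dim clusters, the variance prior and left-out arrays.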

Additional observations from a re-analysis of the deposited data

Results flagged for a closer look

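Dixon's criterion, on the ratio of an array's gap to its group's range, looks for a single array far from the other 3. It was met in 3 of 108 groups of 4 arrays. Chance gives about 1 in 20 for independent arrays, a rate that need not hold for arrays in close pairs. Mrps18a in treated array 1 was at a log2 signal of 9.26, beside 9.41 to 9.44 in the other treated arrays (ratio 0.842). Mrps16, a conserved small-subunit protein, was at 5.58 in treated array 3, beside 5.45 to 5.46 in the other treated arrays (ratio 0.952). Mrpl1, a conserved protein of the L1 stalk, was at 9.13 in control array 2, beside 9.55 to 9.58 in the other control arrays (ratio 0.94).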

How the results depend on the processing

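Mrpl and Mrps genes had 0 calls each under every alternative that kept at least 3 arrays per group, under pair means, and with either control pair left out. With treated arrays 1 and 2 left out the calls were 4 Mrpl and 5 Mrps genes, and with treated arrays 3 and 4 left out 8 and 8. The 26 transcript clusters called became 0 with the replicate block, 0 with the close pair as a random block, 0 with means of close pairs, 48 with each array centred on its median, 55 among transcript clusters above background, and 0 to 5 with 1 array left out. They became 881 without treated arrays 1 and 2, 5502 without treated arrays 3 and 4, and 0 without control arrays 3 and 4. Same-numbered arrays of the groups had deviations that correlated at just 0.07 to 0.08, although 7 of 8 arrays correlated best with their own number. Because these correlations were small, the numbers were not taken as pairs in the main fit. Whether same-numbered arrays belong together was not tested.

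Without treated arrays 3 and 4 the median log2 difference of Mrpl genes was 0.11. With 1 array left out it was 0.16 to 0.25 for Mrpl and 0.10 to 0.20 for Mrps genes. Without treated arrays 3 and 4 the lists had 1 call among 6 mitoribosomal proteins with other symbols, 5 among 25 assembly genes and 5 among 16 translation factors. There were also 4 among 20 synthetases, 7 among 21 mitochondrial DNA genes and regulators, and 2 among 12 chaperones and proteases. In that setting 13.9% of all transcript clusters were called higher and 10.8% lower, so these counts are no result about the lists. Without treated arrays 1 and 2 there was 1 call each among translation factors, synthetases, mitochondrial DNA genes and regulators, and chaperones and proteases. Of all transcript clusters, 2.14% were then called higher and 1.82% lower.

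The sign turned with quantile normalisation for Mrpl24 (-0.029) and Mrps15 (-0.023). With 1 array left out, log2 differences spanned 0 for Mrpl21 (-0.028 to 0.11), Mrpl24 (-0.17 to 0.28), Mrpl42 (-0.16 to 0.45), Mrps9 (-0.53 to 0.10), Mrps15 (-0.26 to 0.28), Mrps16 (-0.32 to 0.013) and Chchd1 (-0.26 to 0.026). The cause was not tested. The other genes named by the rule kept their sign under the alternatives run for them, which did not include leaving out a treated pair. For several of them the treated pairs lay on opposite sides of the control mean. Treated arrays 1 and 2 against 3 and 4 were at -1.09 and 0.24 for Mrpl46, -0.94 and 0.14 for Mrps31, and -0.30 and 1.05 for Mrps33. Their signs thus depend on the treated pair. For 20 of 54 named genes the size moved by over 1.5 times with 1 array left out. Among these were Mrpl3 (-0.31 to -0.0052), Mrpl46 (-0.68 to -0.16), Mrps35 (-0.47 to -0.08), Mrps31 (-0.60 to -0.22), Mrps33 (0.13 to 0.63), Mrps22 (0.39 to 0.75), Tufm (-0.71 to -0.38), Pprc1 (-0.61 to -0.13) and Spg7 (0.32 to 0.79). Signals near background limit what Mrpl34, Mrpl46, Mrpl52, Mrpl54, Mrps15 and Pprc1 can show.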
